A study of Mus musculus with 2 samples.

Results

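The Mir17-92 cluster and its paralog Mir106b-25 are groups of microRNA hairpins that are each cut from 1 primary transcript. Their 9 genes were taken by symbol from the 2202 microRNA genes counted: Mir17, Mir18, Mir19a, Mir20a, Mir19b-1 and Mir92-1 of the first cluster, and Mir106b, Mir93 and Mir25 of the second. They were measured by microRNA sequencing in left cerebral cortex tissue of male B6CASTF1/J mice, aged 14 days. These are F1 hybrids of C57BL/6 and CAST/Ei. There were 2 libraries of this 1 group, with no treatment and no second condition; they are labelled biological replicates 1 and 2 and carry the same donor label. The labels do not say that they came from separate animals, so each SD is the spread between these libraries, which may be technical.

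A microRNA hairpin is cut from its primary transcript by Drosha and then by Dicer, and the mature strand guides Argonaute to messenger RNAs that pair with its seed, bases 2 to 8. Mir17-92 is best known as a MYC-driven oncogenic transcript that promotes cell cycle entry and survival, with Cdkn1a and Bcl2l11 among the known targets of its members. In the embryonic mouse cortex it is known for expanding neural progenitors, and Mir106b-25 is known for promoting the proliferation of adult neural stem cells. These libraries hold microRNA counts of whole tissue, so cell division itself was not measured, and fewer cells of a type and less RNA per cell cannot be told apart.

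The hairpins of Mir17-92 lie on the plus strand of mm10 chromosome 14 between 115043671 and 115044506, within 836 bases, in an exon of the long non-coding host gene Mir17hg (115042879 to 115046727). Those of Mir106b-25 lie on the minus strand of chromosome 5 between 138165321 and 138165818, within 498 bases, inside Mcm7 (138164583 to 138172422), which encodes a subunit of the replicative DNA helicase. Mir106b lies in an intron of 2 annotated Mcm7 transcripts. Mir93 and Mir25 lie in an intron of 2 transcripts and in an exon of 1 other, and none of the 3 overlaps coding sequence.

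Between them the 9 members carry 4 seeds, and the clusters have the miR-17 and miR-25/92 seeds in common. RefSeq (GRCm38.p6, which is mm10) listed mature sequences for all 9. For each, the arm that carries the family seed is shown with that seed, bases 2 to 8, in capitals. The miR-17 seed is in 4 members.

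miR-17-5p: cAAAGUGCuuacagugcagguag
miR-20a-5p: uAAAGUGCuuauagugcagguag
miR-93-5p: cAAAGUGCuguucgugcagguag
miR-106b-5p: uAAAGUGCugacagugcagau

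The closely related miR-18 seed is in Mir18 alone among the members.

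miR-18a-5p: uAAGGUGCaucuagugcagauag

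The miR-19 seed is in Mir19a and Mir19b-1.

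miR-19a-3p: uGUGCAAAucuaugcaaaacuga
miR-19b-3p: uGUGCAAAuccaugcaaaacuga

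The miR-25/92 seed is in the last hairpin of each cluster, Mir92-1 and Mir25.

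miR-92a-3p: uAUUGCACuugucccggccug
miR-25-3p: cAUUGCACuugucucggucuga

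Counted from 1 at the 5′ end of the first-named sequence, miR-17-5p and miR-20a-5p differ at 2 positions (C1U and C12U). miR-17-5p and miR-93-5p differ at 4 (U10G, A11U, C12U and A13C), and miR-19a-3p and miR-19b-3p at 1 (U11C). The sequences matter for the counts, because reads with more than 1 matching position in the genome were left uncounted. miR-19b-3p is found whole in the hairpin of Mir19b-2 and miR-92a-3p in that of Mir92-2, both on chromosome X. The other 7 sequences are found whole in no other listed hairpin. The counts of Mir19b-1 and Mir92-1 are therefore uncertain and can be too low.

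Counts on the strand of the gene came to 4111167 in replicate 1 and 3189903 in replicate 2, and CPM values are counts scaled to a common total from these. Reads that matched several positions made up 39.1% and 41.4% of all reads. Detection was set at 10 counts or more in both libraries, which 406 of the 2202 genes (18.4%) reached. Exact intervals and the limit set by a count of 0, 3 counts, cover counting error only, and PCR copies of a molecule cannot be recognised without molecular identifiers. Each microRNA read spans about 1 mature strand, so counts were not divided by hairpin length, and the arms of a hairpin are counted together. Of 10 neuron-associated microRNA genes 7 were detected, with summed levels of 149671 CPM in the first replicate and 139233 CPM in the second. Mir139 alone gave 101560 CPM and 83088 CPM of these sums. The list was chosen with earlier results of these data known, and no other tissue was measured. These levels therefore do not test cortical identity. The 3 that were not detected are the Mir124a genes, the best-known neuronal microRNA, each at a mean of 4.07 CPM or less. Their hairpins have stretches of 18 bases in common, so reads of the mature strand could be left uncounted.

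Both clusters were expressed in the cortex at 14 days, at nearly equal summed levels and well below the leading microRNAs. Of the 9 members 7 were detected, and the counts of the miR-19 members Mir19a and Mir19b-1 were at or near 0. Mir93 and Mir17 led. In order of mean counted level the members were Mir93, Mir17, Mir106b, Mir20a, Mir92-1, Mir18, Mir25, Mir19b-1 and Mir19a. The counts of Mir92-1 and Mir19b-1 can be too low, and so can their places in this order. The libraries of neighbours in this order did not overlap, except for Mir20a with Mir92-1 and Mir19b-1 with Mir19a. The most abundant gene of all, Mir139, stood at 92324 ± 13062 CPM (SD, n = 2).

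Mir17, whose mature strand is known to repress the cell cycle inhibitor Cdkn1a, had 8402 counts in replicate 1 and 6353 in replicate 2, or 2018 ± 36.8 CPM (SD, n = 2). It was above 82.0% of the other detected genes, and by level it lay between Mir29a (2069 ± 131 CPM) and Mir598 (2017 ± 41.8 CPM). The libraries of all 3 overlapped, so the order of these neighbours is not resolved. Mir20a, which shares the miR-17 seed, had 2251 and 1615 counts (527 ± 29.2 CPM).

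Mir92-1, the last hairpin of the transcript and known for repressing angiogenesis in endothelium, had 2124 and 1592 counts (508 ± 12.4 CPM). Its libraries overlapped with those of Mir20a. These are reads that matched 1 position only. The hairpins of Mir92-1 and Mir92-2 share a stretch of 22 bases, 1 base longer than the 21 bases of miR-92a-3p. Mir18 had 620 and 812 counts (203 ± 73.4 CPM), and it was the only detected member with the lower CPM in replicate 1, scaled to library totals.

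The miR-19 hairpins were the exception in the Mir17-92 transcript. Their mature strands are known as the main oncogenic part of the cluster in mouse lymphoma. Mir19a had 1 count in replicate 1 and 0 in replicate 2, although it lies between Mir18 and Mir20a in the same exon, 53 and 75 bases away. Mir19b-1 had 4 and 0 counts. In replicate 1 Mir17 was 8402 times Mir19a on a single count (exact 95% interval 1508 to 331900) and 2101 times Mir19b-1 (820 to 7711). In replicate 2, where both had 0 counts, the exact 95% lower limit of the ratio was 1722 for either. For Mir19b-1 no limit on abundance follows, since its mature sequence also matches Mir19b-2. For Mir19a the longest stretch shared with Mir19b-1 is 12 bases and with Mir19b-2 is 13 bases, and miR-19a-3p differs from miR-19b-3p at a single base. The GC content of miR-19a-3p, 34.8%, was the lowest of the 9 mature sequences shown above; the others had 39.1% to 57.1%. Whether base composition or the treatment of near-identical positions played a part in these counts was not tested. The hairpins at both ends of the range are shown, with the mature arms that RefSeq lists in capitals.

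Mir17 hairpin: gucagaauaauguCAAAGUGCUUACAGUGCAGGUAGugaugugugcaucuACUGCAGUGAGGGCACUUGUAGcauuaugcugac
Mir19a hairpin: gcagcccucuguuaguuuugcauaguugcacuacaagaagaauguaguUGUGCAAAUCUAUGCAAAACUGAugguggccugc

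RefSeq lists 2 arms for Mir17 and 1 for Mir19a. Within the cluster, Mir17 held 62.7% of the counts (exact 95% interval 61.9 to 63.5%) in replicate 1 and 61.3% (60.3 to 62.2%) in replicate 2. Mir20a held 16.2% ± 0.866 (SD, n = 2) and Mir92-1 held 15.6% ± 0.353. The remainder was almost all Mir18, with 4.63% in replicate 1 (4.28 to 5.00%) and 7.83% in replicate 2 (7.32 to 8.36%). The share of Mir18 thus differed between the libraries by more than counting error.

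**Figure D1:**
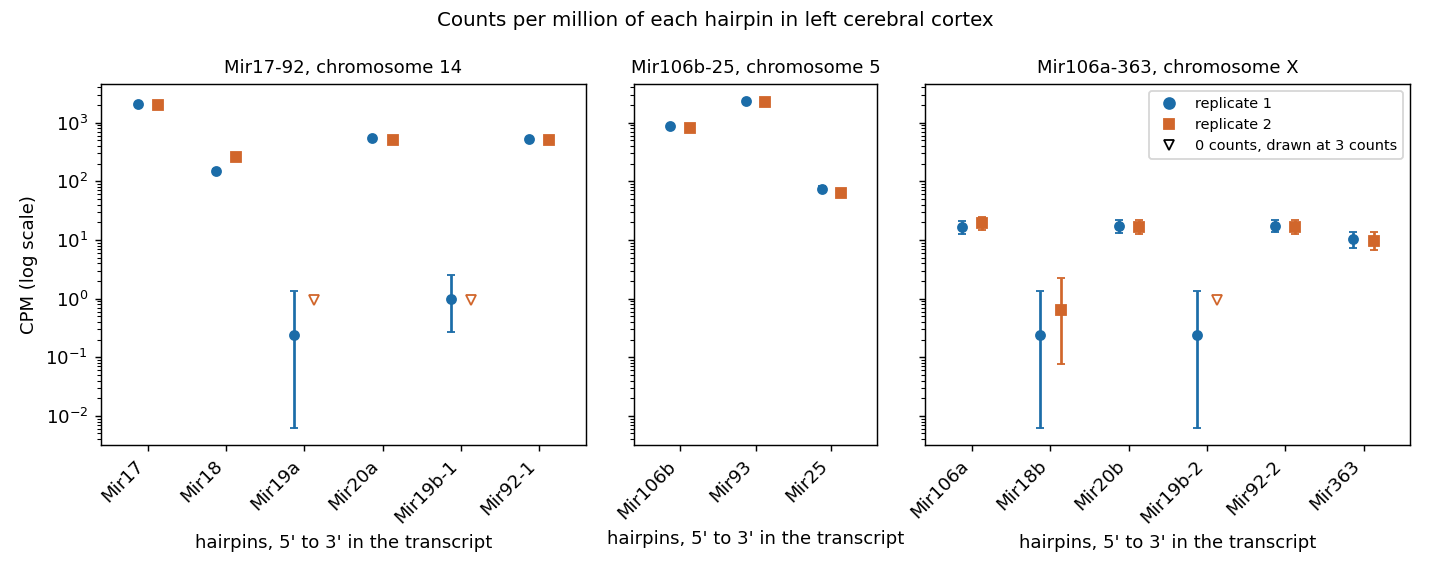
CPM of each hairpin on a log axis, in transcript order, for Mir17-92, Mir106b-25 and the related Mir106a-363 cluster; circles are replicate 1, squares replicate 2, bars exact 95% counting intervals, and open triangles mark 0 counts, drawn at 3 counts. Mir17 and Mir93 lead their transcripts, the miR-19 hairpins sit at 0.973 CPM or less, and the hairpins of the X chromosome lie at 19.4 CPM or less.

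In Mir106b-25 the middle hairpin led. Mir93, which carries the miR-17 seed, had 9798 counts in replicate 1 and 7082 in replicate 2, or 2302 ± 115 CPM (SD, n = 2). It was above 82.7% of the other detected genes. By level it lay between Mir322 (2313 ± 134 CPM) and Mir320 (2209 ± 131 CPM), whose libraries overlapped with its own. Mir106b, with the same seed, had 3578 and 2627 counts (847 ± 33.1 CPM). Mir25, which carries the miR-25/92 seed and is known to repress the pro-apoptotic gene Bcl2l11, had 309 and 205 counts (69.7 ± 7.70 CPM).

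Mir93 held 71.5% ± 0.115 of the cluster's counts, Mir106b 26.3% ± 0.249 and Mir25 2.16% ± 0.134 (SD, n = 2 each). These shares moved little between the libraries. Mir93 was 2.72 ± 0.0301 times Mir106b and 33.1 ± 2.01 times Mir25. None of the 3 mature sequences is found in another listed hairpin, and Mir25 lies 118 bases after Mir93 in the transcript. The leading and the last hairpin of this cluster read as follows, with the listed mature arms in capitals.

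Mir93 hairpin: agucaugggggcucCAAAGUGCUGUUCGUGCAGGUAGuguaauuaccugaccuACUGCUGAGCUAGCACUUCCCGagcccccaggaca
Mir25 hairpin: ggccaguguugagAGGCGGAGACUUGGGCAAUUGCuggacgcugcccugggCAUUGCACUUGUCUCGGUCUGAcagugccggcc

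Set against each other, the clusters had equal summed counts within the spread between libraries. The counts of Mir19b-1 and Mir92-1 can be too low, so the sum of Mir17-92 can be too low as well. Mir17-92 summed to 13402 counts in replicate 1 and 10372 in replicate 2, and Mir106b-25 to 13685 and 9914. That is 0.326% ± 0.000593 of all counts for Mir17-92 and 0.322% ± 0.0156 for Mir106b-25 (SD, n = 2). The ratio of Mir17-92 to Mir106b-25 was 0.979 (exact 95% interval 0.956 to 1.00) in replicate 1 and 1.05 (1.02 to 1.08) in replicate 2, with a mean of 1.01 ± 0.0473. The ratio lay on either side of 1, so neither cluster was higher in both libraries. No test over samples is given, since flipping the signs of 2 values exactly gives no two-sided p below 0.5. The average member of Mir17-92 stood at 0.506 ± 0.0236 times the average member of Mir106b-25, with the counted sums divided by 6 and by 3 hairpins. Mir19a and Mir19b-1, with counts near 0, are among the 6. Without Mir19b-1 and Mir92-1, whose counts can be too low, this ratio was 0.641 ± 0.0328.

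The equal sums hid unequal members. Mir17 was 0.877 ± 0.0280 times Mir93, and Mir20a was 0.622 ± 0.0101 times Mir106b. Mir92-1 was 7.32 ± 0.631 times Mir25. The miR-17 seed pairs follow the order of level within each cluster. Mir17 was above Mir106b, at 2044 CPM against 870 CPM in the first replicate and 1992 CPM against 824 CPM in the second. In sum the miR-17 seed members were lower in Mir17-92, at 2591 CPM against 3254 CPM and then 2498 CPM against 3044 CPM. The miR-25/92 seed member was higher there, in both libraries.

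Summed by seed, most counts of the clusters came from hairpins that hold the miR-17 seed: 87.9% ± 1.11 over both clusters, 78.2% ± 1.89 in Mir17-92 and 97.8% ± 0.134 in Mir106b-25 (SD, n = 2). The arms of a hairpin are summed here, so these are counts of genes and not of 1 mature strand. The 4 members summed to 5845 CPM (replicate 1) and 5542 CPM (replicate 2), of which Mir17-92 gave 2545 ± 66.0 CPM and Mir106b-25 gave 3149 ± 148 CPM (SD, n = 2). RefSeq lists 7 genes with this seed, all of them in the files. The members held 99.4% ± 0.0562 of the counts of the 7. Mir6383, listed with this seed and taken up for it, had 0 counts. Mir18 held 99.8% ± 0.0599 of the counts of the genes with the miR-18 seed.

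The miR-25/92 seed was different: in counted reads, the 2 members together were far below Mir92b, a single hairpin outside the clusters. Mir92b lies on chromosome 3, and in the embryonic mouse cortex it is known for limiting intermediate progenitors. It had 15316 counts in replicate 1 and 9964 in replicate 2, or 3425 ± 426 CPM (SD, n = 2). In counted reads this was above every member of both clusters. Mir92-1 and Mir25 together were 0.170 ± 0.0152 times Mir92b. Of the counts of the 7 genes with this seed the members held 14.3% ± 1.10. Mir32, in an intron of Tmem245, had 144 and 80 counts, and Mir367, of the pluripotency-associated Mir302 cluster, had 0 in both, where the limits for a count of 0 are 0.730 CPM (replicate 1) and 0.940 CPM (replicate 2). Reads of miR-92a-3p that matched both of its loci are not in these sums, so the share of the members can be too low. Its separation from Mir92b rests on 2 positions, U10C and G21C, within the 21 bases compared.

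miR-92a-3p: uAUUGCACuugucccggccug
miR-92b-3p: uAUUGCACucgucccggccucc

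The counted reads of the 3 genes with the miR-19 seed, Mir19a, Mir19b-1 and Mir19b-2, summed to a level of 1.46 CPM in the first library and were 0 in the second. Because miR-19b-3p is found whole in both Mir19b-1 and Mir19b-2 and such reads were left uncounted, these sums set no limit on the abundance of the seed.

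**Figure D2:**
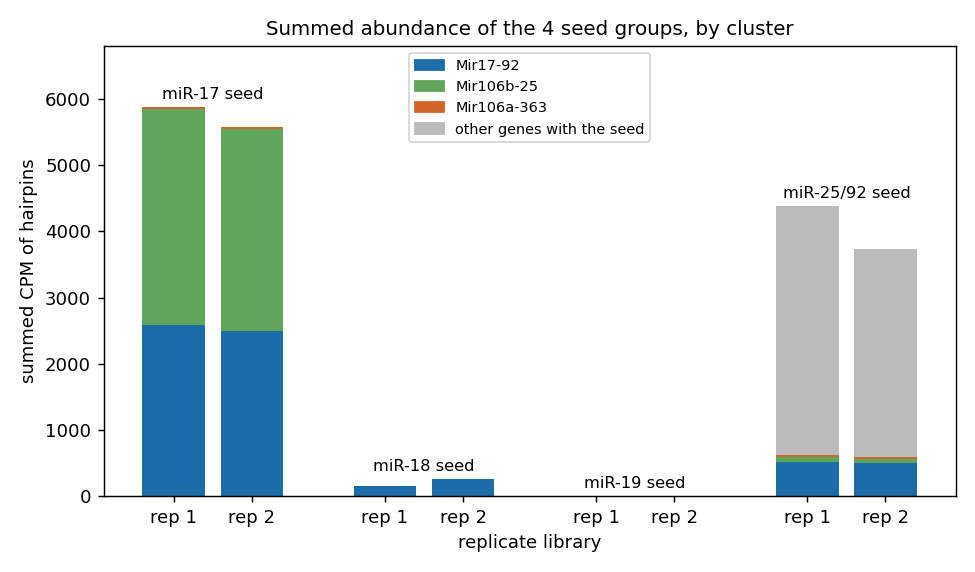
Summed CPM on a linear axis of all genes that share each of the 4 seeds, by library, split into Mir17-92, Mir106b-25, Mir106a-363 and other genes. The miR-17 seed bars, 5878 CPM in replicate 1 and 5578 CPM in replicate 2, are almost all from the 2 clusters. The miR-25/92 seed bars, 4380 and 3738 CPM, are mostly other genes, and the miR-19 seed has no visible bar. Reads of miR-92a-3p and miR-19b-3p that matched several positions are not in the bars, so the parts of the clusters can be too low.

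Mir106a-363, the related cluster of chromosome X, was set beside the members because its hairpins are their closest counterparts. Its 6 hairpins summed to 252 counts in replicate 1 and 201 in replicate 2. Mir17-92 was 52.4 ± 1.12 times as abundant, and Mir106b-25 51.8 ± 3.52 times (SD, n = 2). Each of the 4 detected X hairpins was below all 7 detected members in both libraries. Mir17 was 114 ± 16.2 times Mir106a, whose mature strand differs from miR-17-5p at a single base (U10A). Mir20a was 31.3 ± 1.19 times Mir20b, which differs from it at 2 positions (U1C and U10C). Mir92-1 was 30.0 ± 0.0864 times Mir92-2, which has the same mature strand, so this ratio rests only on reads that could be placed at 1 of the 2 loci.

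miR-17-5p: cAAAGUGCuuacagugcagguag
miR-106a-5p: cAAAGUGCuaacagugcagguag
miR-20a-5p: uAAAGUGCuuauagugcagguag
miR-20b-5p: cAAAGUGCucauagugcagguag

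The balance among hairpins also differed. Mir106a, Mir20b and Mir92-2 stood at 17.9 ± 2.22, 16.8 ± 0.291 and 16.9 ± 0.463 CPM with libraries that overlapped, whereas Mir17 was 3.83 ± 0.142 times Mir20a and 3.97 ± 0.0246 times Mir92-1. The values of Mir92-1 and Mir92-2 rest only on reads that could be placed at a single locus. The miR-18 and miR-19 hairpins of Mir106a-363, Mir18b and Mir19b-2, had 2 counts or fewer in each library. The counts of the miR-19 hairpins were thus at or near 0 in both clusters that hold one, with the same limit from uncounted reads.

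Unequal counts among neighbouring hairpins were common in these libraries. Clusters were defined over all microRNA genes as neighbours on the same strand within 10 kb, which does not show that each is 1 transcript, and 41 clusters other than the 2 had at least 2 detected members. The ratio of the highest to the lowest member, over members with more than 3 counts in each library, was 10.7 ± 4.05 for Mir17-92 and 33.1 ± 2.01 for Mir106b-25 (SD, n = 2). Across the other 41 clusters the median of this ratio was 21.03, with a range of 1.34 to 8468; 19 lay below Mir17-92 and 26 below Mir106b-25. In 23 of the 41, and in 15 of the 20 above the median, at least 1 hairpin had a stretch of 18 bases in common with another microRNA gene, so its count can be too low and the ratio too high. Over the other 18 clusters the median was 7.62, with a range of 1.34 to 74.8; 12 lay below Mir17-92 and 16 below Mir106b-25. The place of both clusters thus depends on which clusters are compared. Nearest to Mir17-92 were the clusters of Mir191 and Mir425 (9.85 ± 0.134) and of Mir341 to Mir370 (9.71 ± 0.376). The ratio of Mir17-92 was 13.6 in replicate 1 and 7.82 in replicate 2, since Mir18 is its lowest member and moved between the libraries. Over the 11 other clusters with at least 3 detected members the median was 124, but most of these hold hairpins with shared stretches. Those of the 11 without such stretches stood at 4.21 ± 1.15, 9.71 ± 0.376 and 29.9 ± 4.12. The ratio of Mir17-92 leaves out the miR-19 hairpins.

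Hairpins near 0 were also present in other abundant clusters. The leading member had at least 1000 counts in each library in 31 of the 41. Since 2 members had to be detected, the 21 of these with 2 genes could hold no such hairpin. Of the 10 with at least 3 genes, 5 held a member with 3 counts or fewer in each library. In 4 of the 5, those led by Mir127, Mir370, Mir487b and Mir467d and named after their values were seen, such a member shared no 18-base stretch with another microRNA gene, as is the case for Mir19a. The remaining cluster was led by Mir322. The first hairpin led in 18 of the 41 other clusters, as in Mir17-92 and unlike in Mir106b-25.

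**Figure D3:**
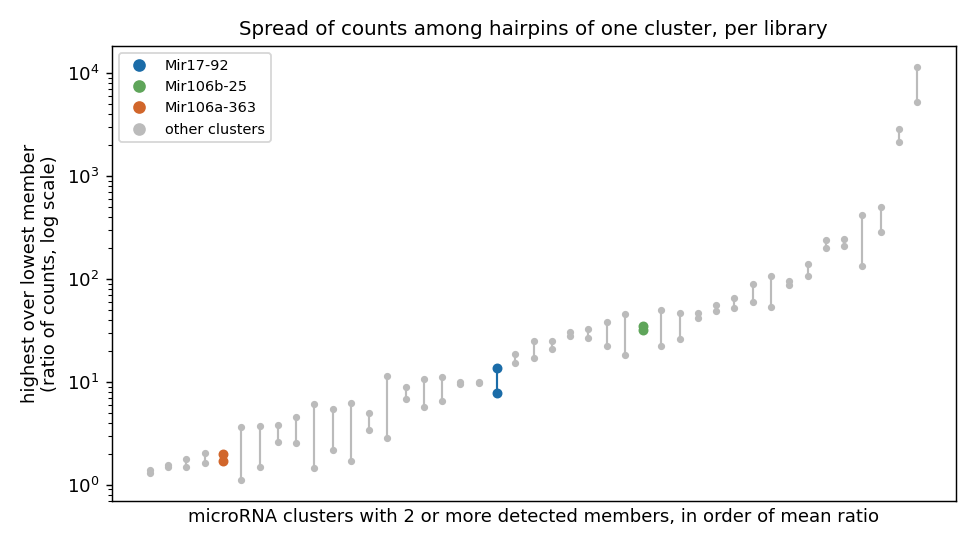
Ratio of the highest to the lowest member of each microRNA cluster with at least 2 detected members, in each library (points, joined by a line), on a log axis and in order of the mean ratio. Mir17-92 (mean 10.7) and Mir106b-25 (33.1) lie within the range of the other 41 clusters, where 19 and 26 are lower, and Mir106a-363 (1.85) lies near the low end; in 23 of the 41, hairpins with shared stretches can have too few counts.

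The members held steady between the libraries, apart from Mir18. The log2 ratio of replicate 1 over replicate 2 lay between 0.037 and 0.23 for 6 of the 7 detected members. Mir18 had 150.8 CPM in the first replicate and 254.6 CPM in the second, a log2 ratio of -0.76. The median absolute log2 ratio was 0.10 for the 7 members, against 0.30 for all 406 detected genes, and all 7 lay within 2-fold, against 90.1% of all detected genes. Among all detected genes, the absolute ratio of Mir18 was at percentile 82.7, while those of Mir17 and Mir92-1 were at percentiles 5.19 and 7.41. Abundant genes have less counting error, and the members were not matched for abundance.

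Each detected gene's split of counts was set against that of the library totals (exact binomial test, two-sided, with p-values adjusted by Benjamini and Hochberg's method over all 406). Such a test compares these libraries by read sampling only. It called 3 of the 7 members, against 58.1% of all detected genes. Mir93 (log2 ratio 0.10; adjusted p = 1.28e-05, exact binomial test) and Mir20a (0.11; adjusted p = 0.0296, exact binomial test) were higher in replicate 1, as were 34.7% of all detected genes. Mir18 was lower in replicate 1, as were 23.4% of all (adjusted p = 2.68e-22, exact binomial test). Mir18 kept this call under other library sizes. TMM library sizes shift all log2 ratios by -0.15. With them the log2 ratios of Mir93 and Mir20a were -0.043 and -0.032 and their calls ended, while Mir17 was called lower (-0.11; adjusted p = 1.71e-05, exact binomial test). Over all detected genes, 141 were higher and 95 lower in replicate 1 with library totals, and 88 and 131 with TMM library sizes.

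**Figure D4:**
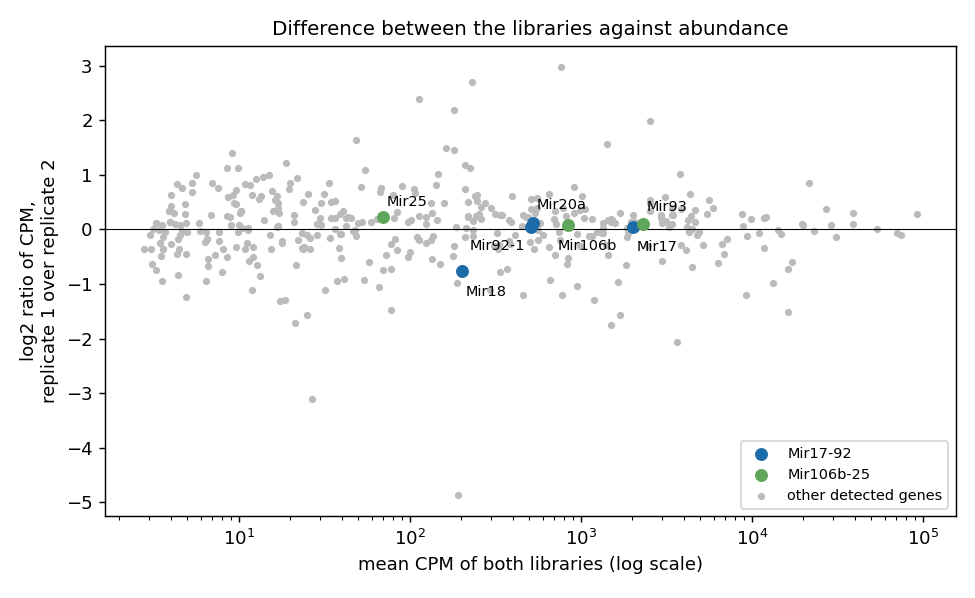
Log2 ratio of CPM, replicate 1 over replicate 2, against the mean CPM of both libraries (log axis) for the 406 detected genes, with the 7 detected members named. The members lie close to 0 (0.037 to 0.23) except Mir18 at -0.76.

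Markers of other cells were set beside the members, since both clusters are also known from blood, leukocytes and endothelium. The 9 members together came to 0.647% ± 0.0162 of all counts (SD, n = 2), or 6474 ± 162 CPM. Of the erythroid markers both were detected, with a summed level of 51.6 CPM in replicate 1 and 86.2 CPM in replicate 2, and the members summed to 101 ± 38.2 times that. All 5 leukocyte and microglia markers were detected, at 1915 and 2061 CPM in sum, and the members came to 3.26 ± 0.250 times that. Most of this sum came from Mir146 (986 ± 148 CPM) and Mir150 (813 ± 20.0 CPM). Mir142, Mir155 and Mir223 were lower, at means of 90.1, 81.5 and 17.8 CPM. Mir126a, the endothelial marker, stood at 10449 and 13176 CPM, and the members at 0.557 ± 0.105 times it. The 3 oligodendrocyte markers, all detected, summed to 2864 and 2531 CPM. Of 8 pluripotent cell markers none was detected and 3 were at 0 in both libraries; their sum was 6.08 and 2.19 CPM. How much each cell type adds to the members' counts was not tested.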

How the data were processed

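Small RNA of 2 libraries of left cerebral cortex was analysed. Each deposited table gives, per gene, raw whole-number counts that the authors did not normalize: strand ignored, strand of the gene, and opposite strand. These follow 4 rows for reads not counted for a gene. The assembly mm10 and the annotation GENCODE M21 are named in the descriptions deposited beside the files; the layout matches STAR's gene counts, but no source used here names the aligner. All 2202 gene IDs matched GENCODE M21, which gave symbols, positions and hosts; mature and hairpin sequences are from RefSeq (GRCm38.p6). The gene-strand column was used, with 4111167 in replicate 1 and 3189903 in replicate 2, and the 4 rows of uncounted reads were left out of these totals. These rows held 63.4% and 63.6% of all reads. Reads of several positions were 39.1% and 41.4%, unmapped reads 19.1% and 17.5%, and reads in no gene 5.13% and 4.66%. Shares and ratios have exact Clopper-Pearson 95% intervals (scipy 1.17.1) and SDs over the 2 libraries. The exact binomial test of library differences used a threshold of 0.05 and was checked on simulated counts. Those counts varied by read sampling only, which the test assumes. The check therefore says nothing about other spread between libraries. TMM factors are from edgeR 4.0.16 and size factors from DESeq2 1.42.0. Named genes are the members, the Mir106a-363 cluster, Mir92b, Mir32 and Mir367, the level neighbours of Mir17 and Mir93, the 2 clusters nearest in spread, and the most abundant gene. Outside this rule, genes of the cell marker lists, Mir6383 for its seed and, after their values were seen, the leaders of 5 clusters with a hairpin near 0 are also named. The members and lists were chosen with earlier results of these data known.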

Additional observations from a re-analysis of the deposited data

Results flagged for a closer look

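Reads that matched several genomic positions lie outside the counts used here, and they were 162 times the summed counts of the 9 members in replicate 1 and 179 times in replicate 2. They were flagged as signal outside the main measurement. How many of them carry a member's mature sequence was not analysed here.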

How the results depend on the processing

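Under the alternatives, leaving aside those without a replicate, 29 of 42 values of the main results stayed within the tolerance (1 SD for shares and ratios, 1.5 times for counts and for the median absolute log2 ratio) and 13 did not. Some of the 29 could not move. The members' counts were the same with strand ignored, so the ratios between them were too. Removing Mir19b-1 and Mir92-1 left the highest and lowest members of Mir17-92 in place. Changing the total moved the shares by construction. With strand ignored they were 0.350% for Mir17-92 and 0.346% for Mir106b-25, without Mir139 in the total 0.359% and 0.355%, and with reads of several positions added to the total 0.155% and 0.153%. Removing members did likewise. Without Mir19b-1 and Mir92-1 the share of Mir17-92 was 0.275%, its ratio to Mir106b-25 was 0.855 and the ratio per member 0.641. Without Mir17 and Mir93 the shares were 0.124% and 0.0917%, the ratio 1.35 and the ratio per member 0.541. The near-equality of the clusters thus depends on which members are summed. Counts per base of hairpin, an alternative added after the data were seen, stayed within the tolerance. Without either replicate, 7 members were detected, the share ranged from 0.325 to 0.326% for Mir17-92 and from 0.311 to 0.333% for Mir106b-25, their ratio from 0.979 to 1.05, the ratio per member from 0.490 to 0.523, and the highest-to-lowest ratio from 7.82 to 13.6 and from 31.7 to 34.5; with 1 library no library difference can be computed. With TMM library sizes the log2 ratio of replicate 1 over replicate 2 changed sign to -0.11 for Mir17, -0.032 for Mir20a, -0.096 for Mir92-1, -0.066 for Mir106b and -0.043 for Mir93, and with DESeq2 size factors to -0.086, -0.010, -0.073, -0.043 and -0.021 in the same order, since the log2 ratios of all genes shift together. Mir18 and Mir25 kept their sign under both. No paired analysis was possible because there is 1 group. Low counts limit the precision for Mir19a, Mir19b-1, Mir18b and Mir19b-2, with 4 counts or fewer per library. For Mir19b-1 and Mir19b-2, reads that matched several positions were also left uncounted.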
